A study of Mus musculus with 4 samples.

Results

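The genes of sterol and fatty acid synthesis were examined in peritoneal macrophages of mice after microcurrent stimulation (MCS). The members were listed by name from the pathway that the sterol regulatory element binding proteins (SREBPs) control, and all 34 are among the 15298 genes in the deposited expression values. The list does not hold every gene of the pathway, and further genes around it are given separately. They comprise 19 enzymes of the sterol branch, 9 enzymes of the fatty acid branch and 6 genes for regulators and sterol transport.

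RNA was sequenced from CD11b+ F4/80+ Ly6G− cells that had been sorted from the abdominal cavity of female BALB/c mice, 6 weeks old. Under isoflurane anesthesia, the MCS mice received a bidirectional pulsed current of 300 µA at 400 Hz for 15 min through pads on abdomen and back, and control mice had the procedure without current. Cells were taken at zeitgeber time (ZT) 2, in the light period, immediately after MCS, or at ZT14, in the dark period, 12 h after it. Time of day and time since the procedure therefore cannot be told apart between ZT2 and ZT14. Each combination of treatment and time had 1 library, and how many mice contributed to it is not stated in the labels or methods. The libraries held 8658191, 9217493, 8365590 and 9953243 reads for control at ZT2 and ZT14 and MCS at ZT2 and ZT14, the order kept below. Values are CPM, reads scaled to an effective library size that includes a normalization factor, so their sums differ between libraries. By this scaling, 1 read was worth 0.115, 0.110, 0.116 and 0.102 CPM. The ribosomal RNA precursor *Rn45s* made up 6.18%, 6.52%, 4.47% and 6.40% of the CPM, least in MCS at ZT2.

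SREBPs are transcription factors made as membrane proteins of the endoplasmic reticulum. When sterols are scarce, SCAP escorts them to the Golgi, where proteases release the active part, and when sterols are plentiful, INSIG proteins hold SCAP back. SREBP2, from *Srebf2*, acts mainly on cholesterol synthesis and SREBP1, from *Srebf1*, mainly on fatty acid synthesis, and macrophages use both products for membranes and for lipid signals.

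Ratios are given as log2 of CPM plus 0.1, and the 95% intervals come from the reads by the exact Clopper-Pearson method. The reads were recovered as whole numbers from values that RSEM had estimated, and such estimates need not be whole, so the intervals leave out any error of assignment or of rounding before deposit. They cover counting error only and compare libraries, since no condition has a replicate. A ratio is called higher or lower beyond counting error where its interval excludes 0. In bulk RNA, fewer cells of a type and less RNA per cell cannot be told apart.

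The cells were checked for the markers of the sort and of other peritoneal cells. *Itgam*, which encodes CD11b, had 5162 CPM at ZT2 and 4214 at ZT14 in control, and 4760 and 4831 CPM in MCS. *Adgre1*, which encodes F4/80, had 1327, 1361, 1086 and 1900 CPM in the same order, and *Lyz2* was the most abundant of the 6 macrophage markers. The 6 macrophage markers and the 5 markers of large peritoneal macrophages, led by *Selp*, were thus present in every library, with *Adgre1* highest in MCS at ZT14. Genes of other cells were present as well. The 6 mast cell genes, led by *Cma1* and including *Cpa3* and *Ms4a2*, summed to 1821, 1184, 2244 and 954 CPM. The 5 B cell genes summed to 1044, 1279, 1004 and 901 CPM. They were led by *Cd79a* except in MCS at ZT14, where *Ms4a1* had 248 CPM and *Cd79a* 233 CPM. Mast cell genes were thus higher at ZT2 than at ZT14 in both treatments, and B cell genes were highest in control at ZT14. The 10 genes of dividing cells, led by *Mki67*, summed to 151, 83.3, 151 and 147 CPM, lowest in control at ZT14. Summed levels were 16.9, 19.4, 74.2 and 11.96 CPM for the 6 neutrophil genes measured (*Camp* at most 0.580 CPM). *S100a9* was the highest of them except in MCS at ZT14, where it had 1.23 CPM and *Retnlg* led with 5.93 CPM. The 6 red blood cell genes measured summed to 3.23, 1.32, 36.7 and 112 CPM, with *Alas2* at most 1.53 CPM. *Hba-a1* was the highest of them at ZT2 in either treatment, *Alas2* in control at ZT14 and *Hba-a2* in MCS at ZT14. *Hbb-b1* led only over the 4 libraries together. The 4 T cell genes measured, *Lck* highest and *Cd3e* among them, summed to 32.3, 23.9, 33.99 and 23.9 CPM, and the 6 mesothelial cell genes, with *Krt19* highest and *Msln* and *Upk3b* among them, to 9.70, 3.41, 11.0 and 4.81 CPM. The 5 hepatocyte genes, led by *Alb*, summed to 55.7, 42.4, 44.2 and 49.7 CPM. Of the 8 adipocyte genes, which matter here because fat cells make much of the same enzymes, 3 were measured, and their sum was at most 1.51 CPM in any library. The adipocyte marker *Plin1* had no reads in control at ZT14 and in MCS at ZT2, and *Adipoq* was not analysed here.

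The branches stood at different levels. Per kilobase of transcript, a scale on which genes can be compared, the median level of the 9 fatty acid enzymes was 18.4 CPM per kb over the 4 libraries, and that of the 19 sterol enzymes was 3.81 CPM per kb. *Acly*, which makes cytosolic acetyl-CoA from citrate, led all members at 212 CPM per kb. *Elovl5*, an elongase of polyunsaturated fatty acids, followed at 108 CPM per kb, the stearoyl-CoA desaturase *Scd1* at 100.4 CPM per kb and *Acaca*, which makes malonyl-CoA, at 59.99 CPM per kb. The leading 4 members were therefore all fatty acid enzymes. The fatty acid branch also held the lowest members, *Fads2* at 0.142 and *Elovl6* at 0.458 CPM per kb, so its range was far wider than that of the sterol branch. *Lbr*, at 37.1 CPM per kb, was the highest of the sterol enzymes and *Hsd17b7*, at 1.04 CPM per kb, the lowest. *Lbr* encodes the lamin B receptor of the inner nuclear membrane as well as a sterol reductase, and *Tm7sf2*, for the other sterol reductase of that step, had 1.18 CPM per kb. Of the sterol enzymes, 16 of 19 had a mean under 20 CPM, and their counting intervals are correspondingly wide.

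Summed over the branch, the sterol enzymes had 308 CPM at ZT2 and 326 at ZT14 in control, and 313 and 372 CPM in MCS. The fatty acid enzymes summed to 2409, 2773, 2301 and 2764 CPM in the same order. Both sums were higher at ZT14 than at ZT2 in control and in MCS, and the sterol sum was highest in MCS at ZT14.

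**Figure D1:**
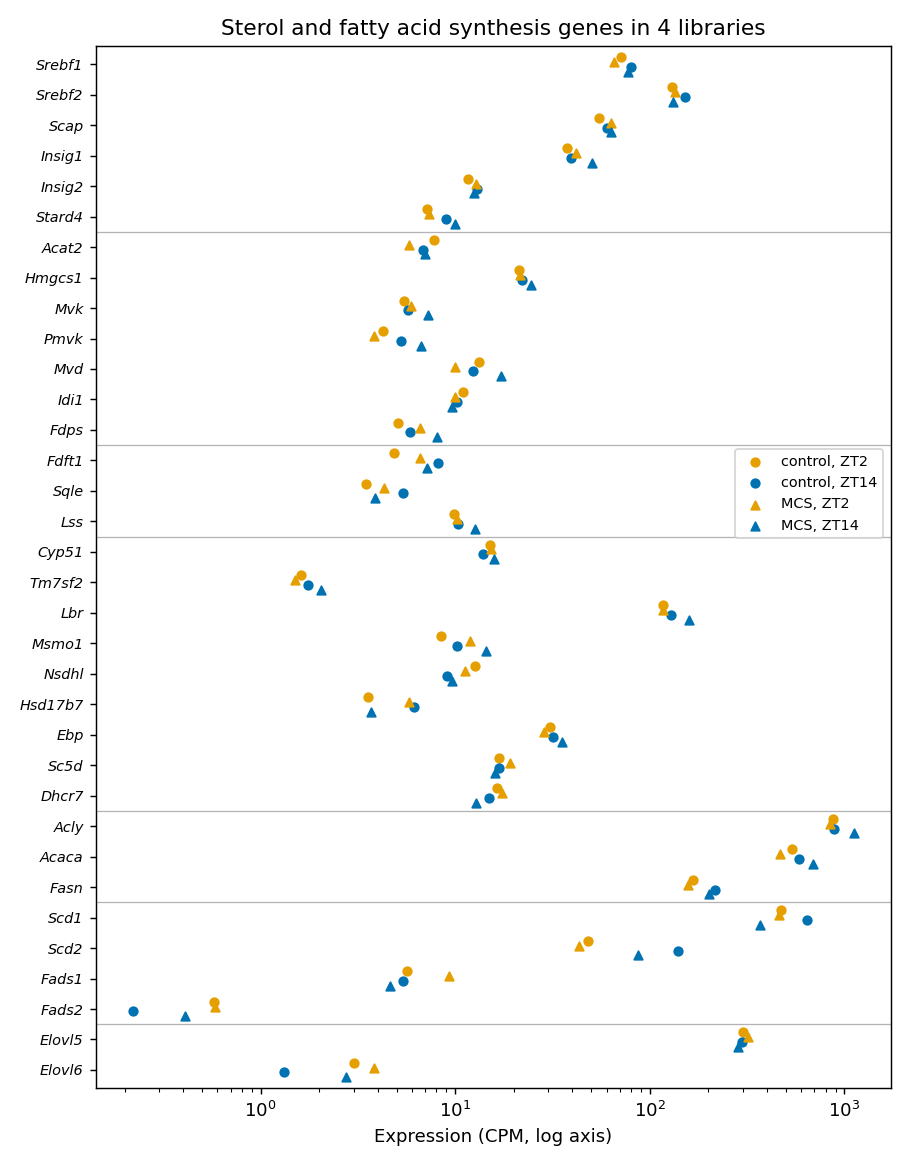
Expression of the 34 members in CPM on a log axis, with 1 point for each library (circles control, triangles MCS, orange ZT2, blue ZT14); lines separate regulators, the 3 sections of the sterol branch and the 3 sections of the fatty acid branch. *Acly*, *Acaca*, *Scd1* and *Elovl5* lie far to the right of most sterol enzymes, and *Scd2* has the widest spread among members above 10 CPM, from 43.4 to 139 CPM.

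Immediately after MCS, at ZT2, the members stayed close to control. The median log2 ratio of MCS to control was 0.03 over the 19 sterol enzymes and -0.04 over the 9 fatty acid enzymes, against 0.00 over the 12612 genes tested, those with a mean of at least 1 CPM in the libraries compared. With members of at least 10 CPM, the medians were 0.01 and -0.07. Of the 34 members, 21 had a ratio above 0, against 50.6% of the genes tested, 33 passed the minimum, and *Fads2* did not. *Hsd17b7* and *Fads1* were above 0.5, which is 5.88% of the members against 5.58% of all genes tested. No member was below -0.5, where 4.86% of all genes lay, and no member was beyond 1 in either direction, against 2.21%. Intervals lay above 0 for 4 members against 11.5% of all genes, and below 0 for 2 members against 11% of all genes. The shares of members beyond these thresholds, or with such intervals, were thus near or below those of all genes in these libraries. The share of members with a ratio above 0 exceeded that of all genes, and this difference was not tested. Of the marker genes, 6 of 6 mast cell genes (log2 ratio of their sum 0.30), 6 of 6 neutrophil genes (2.13), 5 of 6 red blood cell genes (3.46) and 4 of 6 mesothelial cell genes (0.18) were higher in MCS at ZT2. Of the large peritoneal macrophage, hepatocyte and macrophage genes, 1 of 5 (-0.21), 0 of 5 (-0.33) and 1 of 6 (-0.04) were higher, and of the B cell, T cell and dividing cell genes 2 of 5 (-0.06), 2 of 4 (0.07) and 4 of 10 (0.00). The share of *Rn45s* was lower as well, at 4.47% in MCS against 6.18% in control. The part of these differences in the results at ZT2 was not tested. The CPM of all genes summed to 970472 in MCS against 999937 in control, which follows from the scaling to effective library sizes.

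At ZT14, the differences between MCS and control were larger, as they were over all genes. The median was 0.16 for the sterol enzymes, 13 of them above 0, and -0.07 for the fatty acid enzymes, 4 of them above 0, and 0.00 for the 12368 genes tested, 50.4% of which were above 0. Without *Scd1* and *Scd2*, left out after the data were seen, the fatty acid median was 0.24, and the summed CPM of all 9 gave -0.0047. *Elovl6* was above 0.5 against 8.68% of all genes tested, and so was *Fads2*, which lies outside those genes because it did not pass the minimum. *Hsd17b7*, *Scd1* and *Scd2* were below -0.5 against 8.02%. Only *Elovl6* among the members was beyond 1, against 3.4% of all genes. Intervals lay above 0 for 7 members, 20.6% of them against 18.7% of all genes, and below 0 for 5 members, 14.7% against 18.9%. The shares of members beyond these thresholds, or with such intervals, were near those of all genes, so the account below is by member. Marker genes differed between these libraries as well. Higher in MCS were 10 of 10 genes of dividing cells (log2 ratio of their sum 0.82), 5 of 6 macrophage genes (0.13), 4 of 5 genes of large peritoneal macrophages (0.18), 6 of 6 red blood cell genes (6.30), 5 of 5 hepatocyte genes (0.23), 4 of 6 mesothelial cell genes (0.48) and 3 of 4 T cell genes (0.00), and *Adgre1* alone had 0.48. Of the B cell, mast cell and neutrophil genes, 0 of 5, 1 of 6 and 1 of 6 were higher, and their sums had log2 ratios of -0.51, -0.31 and -0.70. Their part in the results at ZT14 was not tested.

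**Figure D2:**
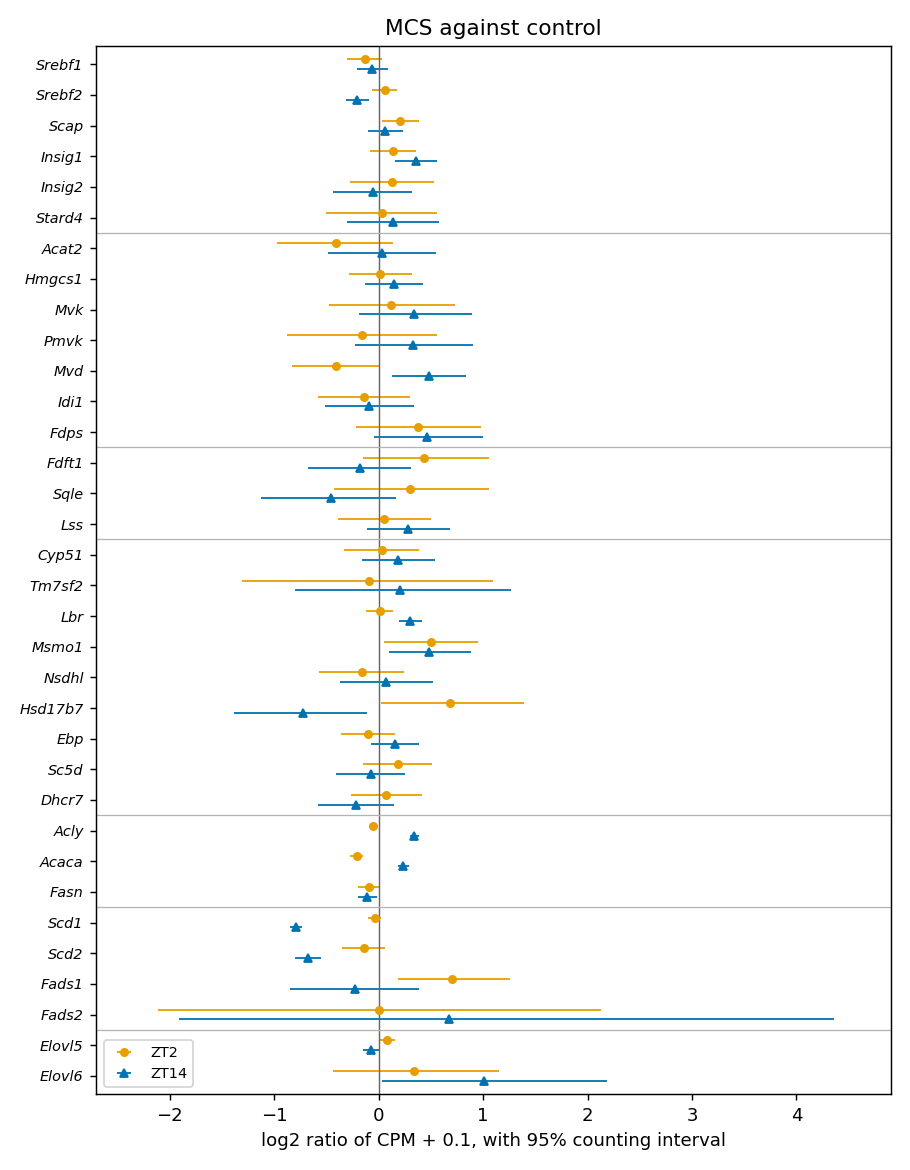
Log2 ratio of MCS to control for the 34 members at ZT2 (orange circles) and ZT14 (blue triangles), with 95% counting intervals and 1 library per condition. At ZT14 *Scd1* and *Scd2* lie at -0.79 and -0.68 while *Acly* and *Acaca* lie at 0.34 and 0.24.

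Among the regulators, *Srebf2* had 129 CPM at ZT2 and 151 at ZT14 in control, and 135 and 131 CPM in MCS. It was highest in control at ZT14, and its log2 ratio of MCS to control there was -0.20 (95% interval -0.32 to -0.09), against 0.06 (-0.06 to 0.18) at ZT2. *Srebf1* had 71.4, 80.4, 65.2 and 77.1 CPM in the same order of libraries. It was higher at ZT14 than at ZT2 with either treatment, with log2 ratios of ZT2 to ZT14 of -0.17 (-0.33 to -0.02) in control and -0.24 (-0.40 to -0.08) in MCS. *Scap*, for the escort protein, had 54.9, 60.5, 63.5 and 63.3 CPM and differed beyond counting error only between MCS and control at ZT2, at 0.21 (0.03 to 0.39).

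*Insig1*, which encodes a retention protein and is itself a classical SREBP target, had 37.6 CPM at ZT2 and 39.2 at ZT14 in control, and 41.5 and 50.2 CPM in MCS. MCS at ZT14 was thus the highest library, at a ratio to control of 0.36 on the log2 scale (0.16 to 0.56). *Insig2*, the second retention protein, lay between 11.7 and 13.0 CPM in the 4 libraries, and *Stard4*, which carries sterols through the cytosol, between 7.16 and 9.92 CPM. Neither differed beyond counting error in any of the 4 comparisons.

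The first section of the sterol branch leads from acetyl-CoA through mevalonate to farnesyl diphosphate, which also feeds the prenylation of proteins. Its 7 enzymes measured here summed to 68.1 CPM at ZT2 and 68.2 at ZT14 in control, and 63.7 and 80.2 CPM in MCS. The sum was highest in MCS at ZT14, at a log2 ratio to control of 0.23 (0.08 to 0.39). There 6 of the 7 enzymes had a ratio above 0, against 50.4% of all genes tested, and only *Mvd* had an interval above 0. At ZT2, 3 of the 7 were above 0, against 50.6% of all genes, and the ratio of the sum was -0.10 (-0.27 to 0.07). The summed genes of dividing cells, at 0.82, and of large peritoneal macrophages, at 0.18, were higher in MCS at ZT14 too. Their part in the sum at ZT14 was not tested. *Mvd*, whose product decarboxylates diphosphomevalonate, had 13.3, 12.3, 9.98 and 17.2 CPM. It was lowest in MCS at ZT2 and highest in MCS at ZT14, and its log2 ratio to control was -0.41 (-0.83 to 0.00) at ZT2 and 0.48 (0.13 to 0.84) at ZT14. *Pmvk*, for the preceding kinase, had 4.27, 5.27, 3.83 and 6.65 CPM and followed the same order in MCS, with a log2 ratio of ZT2 to ZT14 of -0.78 (-1.45 to -0.17).

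*Hmgcs1*, for the synthase that makes HMG-CoA, varied little, with 21.4 CPM at ZT2 and 22.1 at ZT14 in control, and 21.6 and 24.4 CPM in MCS. *Fdps*, which joins isoprene units to farnesyl diphosphate, had 5.08, 5.82, 6.61 and 8.08 CPM. It was higher with MCS at both times, with intervals that included 0. *Idi1*, an isomerase of isoprene units, lay between 9.61 and 11.0 CPM, *Mvk*, the mevalonate kinase, between 5.43 and 7.26 CPM, and *Acat2*, which condenses acetyl-CoA, between 5.80 and 7.74 CPM, all without a difference beyond counting error. Of the 100-base stretches in annotated transcripts, 28.9% of those of *Acat2* also occur in *Acat3*, which had 1.04 to 1.62 CPM, and 21.4% of *Fdps* and 15.8% of *Idi1* stretches occur in other genes, so reads of these enzymes may be divided.

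The next section joins farnesyl units to squalene and closes the ring system. *Fdft1*, the squalene synthase, had 4.85 CPM at ZT2 and 8.13 at ZT14 in control, and 6.61 and 7.16 CPM in MCS. Control at ZT2 was thus the low library, with a log2 ratio of ZT2 to ZT14 of -0.73 (-1.33 to -0.18) in control and -0.11 (-0.64 to 0.41) in MCS. *Sqle*, the squalene epoxidase, had 3.46, 5.38, 4.29 and 3.89 CPM, and *Lss*, which forms lanosterol, lay between 9.82 and 12.6 CPM. The intervals of *Sqle* and *Lss* included 0 in all 4 comparisons.

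In the section from lanosterol to cholesterol, *Msmo1*, for a methyl sterol oxidase, had 8.43 CPM at ZT2 and 10.2 at ZT14 in control, and 11.9 and 14.3 CPM in MCS. It was higher with MCS at both times, with log2 ratios of 0.50 (0.06 to 0.96) at ZT2 and 0.48 (0.10 to 0.88) at ZT14, and it was the only sterol enzyme whose intervals lay above 0 at both. *Lbr* had 116, 129, 117 and 159 CPM and was highest in MCS at ZT14, where its log2 ratio was 0.30 (0.19 to 0.41), against 0.01 (-0.12 to 0.14) at ZT2. *Lbr* made up a large part of the summed sterol branch, so that sum follows it.

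*Hsd17b7*, which encodes a ketosterol reductase, had 3.58 CPM at ZT2 and 6.15 at ZT14 in control, and 5.80 and 3.68 CPM in MCS. Its log2 ratio of MCS to control was 0.68 (0.02 to 1.39) at ZT2 and -0.73 (-1.39 to -0.11) at ZT14, so that the treatments lay in opposite order at the 2 times. It rests on 173 reads in all 4 libraries together. *Nsdhl*, a dehydrogenase that acts with it in removing methyl groups, had 12.6, 9.12, 11.3 and 9.61 CPM and was higher at ZT2 in control, at 0.46 (0.04 to 0.90).

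Of the late steps, *Dhcr7*, whose reductase makes cholesterol from its direct precursor, had 16.4 CPM at ZT2 and 14.8 at ZT14 in control, and 17.3 and 12.8 CPM in MCS. *Ebp*, a sterol isomerase, had 30.7, 31.9, 28.7 and 35.5 CPM. They moved in opposite directions in MCS, where the log2 ratio of ZT2 to ZT14 was 0.43 (0.08 to 0.79) for *Dhcr7* and -0.31 (-0.55 to -0.07) for *Ebp*. *Cyp51*, the lanosterol demethylase, *Sc5d*, a sterol desaturase, and *Tm7sf2* had 13.8 to 15.7, 16.0 to 19.1 and 1.51 to 2.05 CPM over the libraries, with no difference beyond counting error. Of the *Tm7sf2* stretches, 7.92% also occur in *Vps51*, which had 32.6 to 39.2 CPM, so reads of *Tm7sf2* may be divided.

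The chain synthesis enzymes of the fatty acid branch were abundant enough for narrow intervals. *Acly* had 872 CPM at ZT2 and 888 at ZT14 in control, and 843 and 1125 CPM in MCS. *Acaca* had 538, 587, 465 and 692 CPM in the same order. Both were lowest in MCS at ZT2 and highest in MCS at ZT14. *Adgre1*, at 1327, 1361, 1086 and 1900 CPM, had the same order of libraries, and the genes of dividing cells were higher in MCS than in control at ZT14, 10 of 10. Their part in these results was not tested. For *Acaca*, the log2 ratio of MCS to control was -0.21 (-0.27 to -0.15) at ZT2 and 0.24 (0.19 to 0.29) at ZT14, and that for *Acly* was 0.34 (0.30 to 0.38) at ZT14. Of the *Acaca* stretches, 23.7% also occur in another annotated gene. *Fasn*, for the synthase that builds palmitate, did not follow them. It had 167, 216, 157 and 200 CPM. Its log2 ratio was -0.11 (-0.20 to -0.02) for MCS against control at ZT14, and that of ZT2 to ZT14 was -0.37 (-0.47 to -0.27) in control and -0.35 (-0.45 to -0.25) in MCS.

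The stearoyl-CoA desaturases place the first double bond in saturated chains. *Scd1* had 471 CPM at ZT2 and 640 at ZT14 in control, and 460 and 370 CPM in MCS. *Scd2* had 47.9, 139, 43.4 and 87.1 CPM in the same order. For both genes the control library at ZT14 was the highest, and MCS and control were close at ZT2. At ZT14 the log2 ratio of MCS to control was -0.79 (-0.85 to -0.73) for *Scd1* and -0.68 (-0.80 to -0.55) for *Scd2*. The desaturases thus lay on the opposite side of control from *Acly* and *Acaca* in the same library. Summed B cell, mast cell and neutrophil genes were also lower in MCS than in control at ZT14, and their part in this result was not tested. *Scd1* and *Scd2* share 2.6% and 0.88% of their stretches with other genes, and *Scd3* and *Scd4* had at most 0.462 and 1.76 CPM.

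*Fads1*, a desaturase of polyunsaturated fatty acids, had 5.66 CPM at ZT2 and 5.38 at ZT14 in control, and 9.28 and 4.60 CPM in MCS. MCS at ZT2 was the high library, at a log2 ratio to control of 0.70 (0.18 to 1.26). *Fads2*, for the partner desaturase, had 0.577, 0.220, 0.580 and 0.409 CPM, too few reads for a comparison. *Elovl5* had 302, 296, 319 and 283 CPM and varied least among the fatty acid enzymes, while *Elovl6*, which lengthens palmitate, had 3.003, 1.32, 3.83 and 2.76 CPM. *Elovl6* was lowest in control at ZT14, and its ratio of MCS to control there, 1.01 (0.04 to 2.18), rests on low counts.

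Between ZT2 and ZT14 in control, 11 members had the higher value at ZT2 and 23 at ZT14, and 49.5% of all genes tested had the higher value at ZT2. The median log2 ratio was -0.07 for the sterol enzymes and -0.03 for the fatty acid enzymes. With members of at least 10 CPM these medians were 0.0047 and -0.25, and from the summed CPM -0.08 and -0.20. *Elovl6* was above 0.5, against 9.37% of the 12465 genes tested, and so was *Fads2*, again outside those genes. *Fdft1*, *Sqle*, *Hsd17b7* and *Scd2* were below -0.5, which is 11.8% of the members against 5.98% of all genes. Beyond 1 lay *Elovl6* and *Scd2*, against 3.61% of all genes, and *Fads2*, outside those genes, with few reads. Intervals lay above 0 for 2 members against 13.6% of all genes and below 0 for 9 members, 26.5% against 15.9%. The share of members lower at ZT2 thus exceeded that of all genes, by few genes, and this difference was not tested.

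*Scd2* had the largest difference of the members above 10 CPM, with a log2 ratio of ZT2 to ZT14 of -1.54 (-1.70 to -1.38) in control and -1.004 (-1.18 to -0.83) in MCS. In control, 39 of the 12465 genes tested had a lower ratio. *Scd1*, its neighbor on chromosome 19, had -0.44 (-0.50 to -0.38) in control but 0.31 (0.25 to 0.38) in MCS. *Scd2* was therefore low at ZT2 with either treatment, and *Scd1* only in control. Of the marker genes, 6 of 6 mast cell genes were higher at ZT2 in either treatment, with log2 ratios of their sum of 0.62 in control and 1.23 in MCS. For B cell genes 0 of 5 were higher at ZT2 in control (-0.29) and 4 of 5 in MCS (0.16), a change of side like that of *Scd1*. For genes of dividing cells it was 10 of 10 in control (0.86) and 2 of 10 in MCS (0.04), and for neutrophil genes 3 of 6 (-0.20) and 6 of 6 (2.62). Mesothelial cell genes were higher at ZT2 for 6 of 6 in either treatment (1.48 and 1.18), and T cell genes for 4 of 4 in control (0.43) and 3 of 4 in MCS (0.50). Hepatocyte genes changed side, with 5 of 5 higher at ZT2 in control (0.39) and 0 of 5 in MCS (-0.17), as did the summed red blood cell genes, with 3 of 6 (1.23) and 1 of 6 (-1.60). For macrophage and large peritoneal macrophage genes it was 2 of 6 (0.04) and 3 of 5 (0.21) in control. The part of all these genes in the results was not tested.

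In MCS, 14 members had the higher value at ZT2 and 20 at ZT14, and 50.6% of all genes tested had the higher value at ZT2. *Hsd17b7* and *Fads1* were above 0.5, against 12.9% of the 12534 genes tested, and *Pmvk*, *Mvd*, *Acaca* and *Scd2* below -0.5, 11.8% of the members against 10.7%. Beyond 1 lay *Scd2*, against 5.83% of all genes. Intervals lay above 0 for 5 members against 21.9%, and below 0 for 10 members, 29.4% against 22.2%. The median was -0.26 for the sterol enzymes and 0.18 for the fatty acid enzymes. The sign of the latter is set by weakly expressed genes, since with members of at least 10 CPM it was -0.38 and from the summed CPM -0.26. The 3 chain synthesis enzymes were all lower at ZT2 in MCS, at -0.42 (-0.46 to -0.37) for *Acly* and -0.57 (-0.63 to -0.52) for *Acaca*, against -0.03 (-0.07 to 0.02) and -0.12 (-0.18 to -0.07) in control. Of the 6 macrophage genes, 2 were higher at ZT2 in MCS, and the log2 ratio of their sum was -0.14, with *Adgre1* at -0.81, *Itgam* at -0.02, *Cd68* at 0.48 and *Mertk* at 0.64. Of the 5 genes of large peritoneal macrophages 1 was higher, and their sum had -0.18. The share of *Rn45s* was 4.47% at ZT2 and 6.40% at ZT14 in MCS. The part of these values in the results was not tested.

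**Figure D3:**
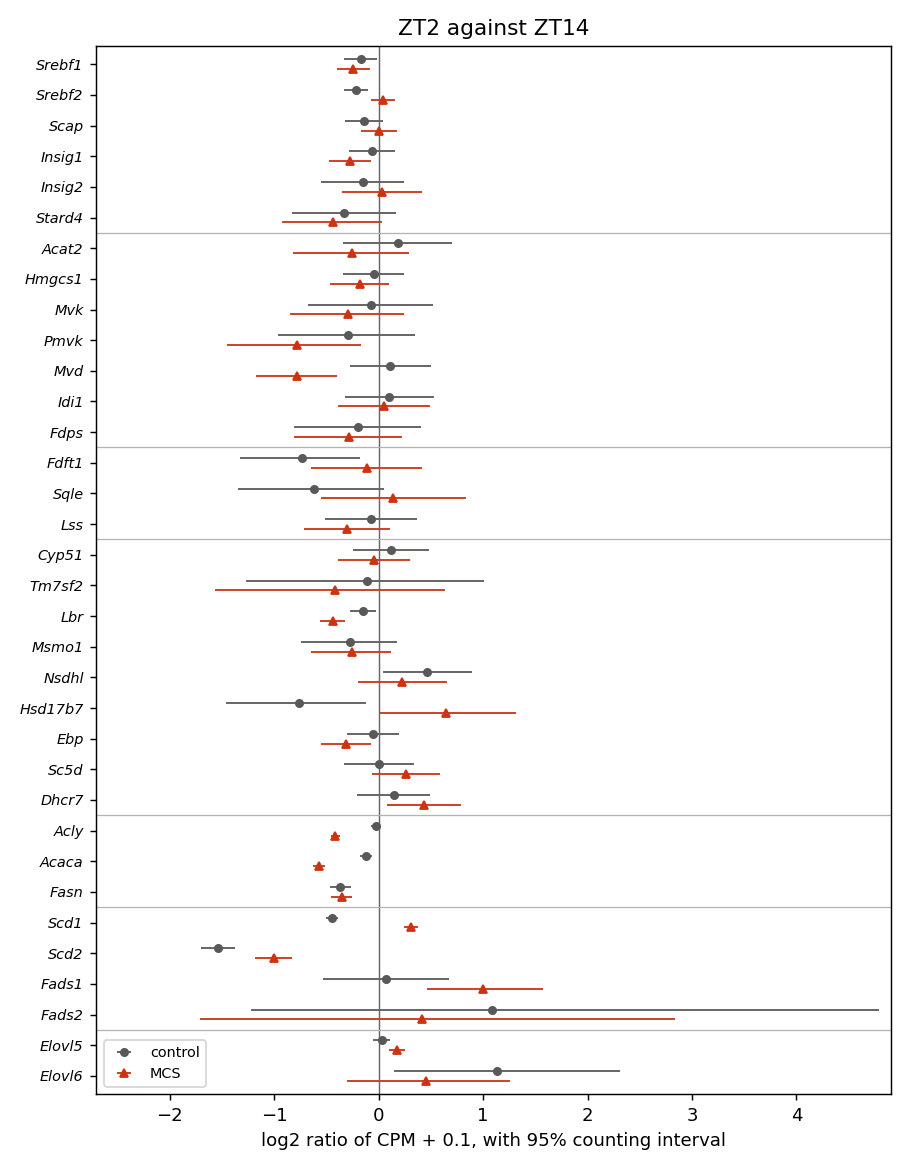
Log2 ratio of ZT2 to ZT14 for the 34 members in control (gray circles) and MCS (red triangles), with 95% counting intervals and 1 library per condition. *Scd2* lies at -1.54 and -1.004, and *Scd1* changes side, from -0.44 in control to 0.31 in MCS.

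The log2 ratio of MCS against control at ZT14 minus that at ZT2 describes how far these ratios differed between the times. With 1 library per condition, it cannot separate an effect of time from other differences between libraries. Its approximate counting interval excluded 0 for 10 of 34 members and for 37.2% of the 12236 genes that passed the minimum at both times. The share of members was thus below that of all genes. Opposite sides of 0 at ZT2 and ZT14, each beyond counting error, were found for 3 of 34 members and for 10.2% of these genes. The 10 members whose difference excluded 0 were 6 of the 9 fatty acid enzymes (*Acly*, *Acaca*, *Scd1*, *Scd2*, *Fads1* and *Elovl5*), 3 of the 19 sterol enzymes (*Mvd*, *Lbr* and *Hsd17b7*) and *Srebf2*. The difference was -0.75 (-0.84 to -0.67) for *Scd1*, -0.53 (-0.77 to -0.30) for *Scd2* and 0.89 (0.36 to 1.42) for *Mvd*. Fatty acid enzymes are more abundant, which narrows their intervals, so these counts do not compare the branches.

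A count test on the recovered reads, with terms for time and MCS, set the pairs of libraries against each other and assumed the same effect of MCS at both times. For MCS it called 0 of the 33 members tested and 0.193% of 12404 genes by edgeR's quasi-likelihood test, and 3 of the members (*Scd1*, *Scd2* and *Msmo1*) had an unadjusted p under 0.05, as did 2.45% of all genes. DESeq2 also called 0 members, and by it 0 members and 0.347% of all genes had an unadjusted p under 0.05. For time it called 1 member, *Scd2*, and 2.38% of all genes, and 2 of the 33 members (*Scd2* and *Fasn*) had an unadjusted p under 0.05, as did 10.4% of all genes. By DESeq2 this was *Scd2* alone among the members, and 3.47% of all genes. *Scd2* had a fitted log2 ratio of ZT2 to ZT14 of -1.27 and an edgeR adjusted p, over all genes tested, of 7.11e-06. It was lower at ZT2 in both pairs of libraries, and DESeq2 called it as well. The test rests on 1 residual degree of freedom, and its p does not measure spread between replicate libraries of a condition, since there are none. For *Scd2*, the log2 ratio of MCS to control at ZT14 minus that at ZT2 was -0.53 (-0.77 to -0.30). That is at odds with the equal effect of MCS that the test assumed.

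Other genes around the pathway were followed in 32 further genes, of which 31 were measured. The 8 genes of SREBP cleavage and INSIG turnover, such as the protease gene *Mbtps1*, had median log2 ratios of MCS to control of 0.09 at ZT2 and -0.07 at ZT14. None passed 0.5 in either direction in any comparison. Of all genes tested, 5.58% to 12.9% lay above 0.5 and 4.86% to 10.7% below -0.5, depending on the comparison. Among the 8 genes of sterol esterification, transport and isoprenoid use, *Ggps1*, which makes geranylgeranyl diphosphate, had 15.8 CPM at ZT2 and 21.1 at ZT14 in control, and 18.2 and 13.0 CPM in MCS. It was lower with MCS at ZT14, at a log2 ratio of -0.70 (-1.03 to -0.37), while *Fdps*, for the step before it, was not lower. Of the 15 genes measured for acyl supply and elongation, 7 had a ratio above 0 and 8 below 0 in each of the 4 comparisons. Among all genes tested, 49.5% to 50.6% had a ratio above 0 in these comparisons. *Acss2*, which makes acetyl-CoA from acetate and was named after its values were seen, had 3.003, 6.37, 2.78 and 7.16 CPM. It was low at ZT2 with either treatment, like *Scd2*, with log2 ratios of ZT2 to ZT14 of -1.06 (-1.81 to -0.39) in control and -1.33 (-2.10 to -0.68) in MCS. *Elovl7*, an elongase gene of the same list and also named after its values were seen, went the other way, with 2.66, 1.10, 2.67 and 1.023 CPM and log2 ratios of 1.20 (0.15 to 2.51) in control and 1.302 (0.26 to 2.62) in MCS. The count test for time called *Acss2* by edgeR and not by DESeq2, and it did not call *Elovl7*.

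The promoters were searched for motifs on both strands, in windows from 250 bases before to 50 bases after each start in RefSeq (GRCm38.p6). Of the 34 members, 27 were matched, all but *Scd1*, *Scd2*, *Fads1*, *Fdft1*, *Sqle*, *Fdps* and *Stard4*. The sterol regulatory element core, TCACNCCAC, was present in 1 of 27 members, *Hmgcs1*, and in 1.24% of all 32851 promoters. The E-box CACGTG, a motif not particular to the clock factors that bind it, was present in 6 of 27 members (*Scap*, *Insig1*, *Hsd17b7*, *Sc5d*, *Dhcr7* and *Elovl5*) and in 7.15% of all promoters. CCAAT was found in 22 of 27 members against 37.4% of promoters, and the GC box GGGCGG in 22 of 27 against 35.7%, while the D-box TTATGNAA was in 0 of 27 against 3.38%. Members were counted where any of their windows held the motif, whereas the shares of all promoters are of single windows. Counted like the members, the shares among the 11487 genes listed here with a window were 1.44% for the sterol element and 10.9% for the E-box. They were 42.3% for CCAAT, 63.5% for the GC box and 2.72% for the D-box. A match describes letters and is not a binding site.

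The *Hmgcs1* window, at chr13:119690101-119690400 on the plus strand, is shown because it holds the sterol element, in capitals from position -137. The *Hsd17b7* window, at chr1:169969156-169969455 on the minus strand, is shown for a member whose order between treatments changed with time, with its E-box in capitals from position -143. Positions are counted from the RefSeq start on which each window was placed.
Hmgcs1: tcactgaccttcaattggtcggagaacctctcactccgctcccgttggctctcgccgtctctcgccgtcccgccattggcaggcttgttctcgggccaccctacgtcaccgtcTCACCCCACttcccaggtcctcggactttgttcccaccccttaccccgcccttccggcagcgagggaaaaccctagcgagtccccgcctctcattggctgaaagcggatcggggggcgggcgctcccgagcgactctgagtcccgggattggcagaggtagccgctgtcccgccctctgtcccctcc
Hsd17b7: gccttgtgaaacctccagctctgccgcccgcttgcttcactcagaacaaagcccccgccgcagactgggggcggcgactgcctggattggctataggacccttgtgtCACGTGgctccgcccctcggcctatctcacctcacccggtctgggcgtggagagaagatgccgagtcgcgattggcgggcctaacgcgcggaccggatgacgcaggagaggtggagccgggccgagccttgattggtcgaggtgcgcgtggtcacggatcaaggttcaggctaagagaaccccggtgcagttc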

How the data were processed

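RNA-seq of sorted peritoneal macrophages was analysed in 4 libraries. Reads were trimmed by the authors (Trimmomatic 0.38) and assigned to genes (RSEM 1.3.0 with Bowtie 2), and the deposited values are CPM from edgeR. The submitters' notes name build mm10. The library kit was directional, and the strand setting of the counting is not stated. Dividing each column by its smallest step gave whole reads, within 0.05 read, for 100% of values. Log2 ratios used 0.1 CPM as pseudocount, and genes with a log2 mean above 0 formed the background. The interval for a difference of ratios is a normal approximation on the reads. All members were named, further genes at a log2 ratio beyond 0.5 with a mean of at least 10 CPM, and the leading and defining markers. Some genes of these lists are not reported here. Members and lists were chosen with earlier results of these data known. The count test (edgeR 4.0.16, genes with at least 40 reads, TMM factors from these genes, Benjamini-Hochberg, threshold 0.05) called 24 genes for MCS and 295 for time. DESeq2 1.42.0 was an alternative. Factors from all listed genes were tried only after these counts were seen beside an earlier count of 23 on the same data, gave 23 and 271 genes, and are given as an alternative. Scripts were tested on simulated data, and transcripts came from GENCODE. Software was Python 3.11.15, pandas 2.3.3, scipy 1.17.1 and R 4.3.3.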

Additional observations from a re-analysis of the deposited data

Results flagged for a closer look

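Of the members and further pathway genes reported here, 64 were screened, and 7 had ratios of MCS to control on opposite sides of 0 at ZT2 and ZT14, each beyond counting error, as did 10.2% of the 12236 genes that passed the minimum at both times, so the share screened was near that of all genes. These differences were not tested. The log2 ratio at ZT14 minus that at ZT2 was -1.41 for *Hsd17b7*, 0.39 for *Acly* and 0.45 for *Acaca*. Among the further pathway genes, named here for this difference after their values were seen, it was -0.28 for the cholesterol esterification gene *Soat1*, 0.49 for the lysosomal sterol carrier *Npc2*, 1.19 for *Tmem97* and -0.62 for the elongation cycle gene *Tecr*. *Tmem97* had 8.89 CPM at ZT2 and 7.80 at ZT14 in control, and 5.45 and 11.0 CPM in MCS. With 1 library per condition, no difference has a replicate check.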

How the results depend on the processing

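No library could be left out because each condition has 1 library. All 544 values of single members under other pseudocounts and scalings stayed within their counting intervals, and of 124 alternatives for medians and counts 96 stayed close. TMM factors from all listed genes left the scaling as deposited. The cause of the other changes was not tested, except where fewer genes or another threshold make up the alternative.

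With members of at least 10 CPM, the fatty acid median of ZT2 to ZT14 changed from -0.03 to -0.25 in control and from 0.18 to -0.38 in MCS, and the summed CPM gave -0.20 and -0.26. Without *Scd1* and *Scd2*, added after the data were seen, it was 0.029 for ZT2 to ZT14 in control, and that of MCS to control at ZT14 was 0.24. With members of at least 10 CPM, 0 members were above 0.5 in each of the 4 comparisons, and 1 in place of 4 was below -0.5 for time in control. A pseudocount of 1 CPM left 1 in place of 2 members above 0.5 for MCS at ZT14 and for time in control. Above a log2 threshold of 1 lay 0 members for MCS at ZT2, 1 for MCS at ZT14 and 0 for time in MCS, and below -1 lay 0 for MCS at ZT14, 1 for time in control and 1 for time in MCS. Beyond 1 in either direction lay 2.21% and 3.4% of all genes for MCS at ZT2 and ZT14. For time these shares were 3.61% in control and 5.83% in MCS. Above 0.3 lay 7 members for MCS at ZT2, 10 for MCS at ZT14 and 6 for time in MCS, and below -0.3 lay 2 for MCS at ZT2, 7 for time in control and 10 for time in MCS. No share of all genes was taken at 0.3, so these counts show only how the threshold moves them. The count test for MCS called 24 genes, 43 without the filter on low reads, 5 by DESeq2 and 23 with TMM factors from all listed genes, added after the data were seen. That for time called 295 genes, 380 without the filter, 81 by DESeq2 and 271 with those factors, and the members called were 0 for MCS and *Scd2* for time in each. Depth limits most of the sterol enzymes, since 16 of 19 had a mean under 20 CPM, as did 3 of the 9 fatty acid enzymes.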
